A study of Mus musculus with 8 samples.

Results

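The genes described here mark the enteric nervous system, the network of neurons and glia inside the gut wall. Its members were fixed as a list of 33 symbols, 27 of neurons and 6 of glia, and all 33 were measured, out of 30702 genes named on the array. Each member had 1 probe set annotated to it alone. RNA was measured in colon tissue of 8 C57BL/6 mice of genotype Rag1-/-, which lack mature T and B cells of their own. Of these, 5 mice had received regulatory T cells (Treg-injected, called control here) and 3 had received naïve T cells (Naïve T-injected) and showed severe inflammation. Cells were given at an age of 10 weeks and tissue was taken 2 to 4 months after that, while the labels state 4 to 5 months as the age of all 8. The sampled region is given as distal colon by the sample protocol and as a strip along the whole colon by the series design. Each mouse gave 1 array, and the question is which transcripts set the severely inflamed colon apart.

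Enteric neurons lie in the myenteric plexus between the muscle layers and in the submucosal plexus, and they drive motility, secretion and blood flow without input from the brain. Excitatory motor neurons of the gut muscle use acetylcholine and tachykinins, and inhibitory motor neurons use nitric oxide and vasoactive intestinal peptide. Enteric glia surround them and arise, like the neurons, from neural crest cells that need the receptors Ret and Ednrb to colonise the gut. Whole tissue was measured, so fewer cells of a type and less RNA per cell cannot be told apart in any value below.

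Values are log2 intensities, and a gene is said to have risen or fallen where limma's adjusted p was under 0.05. Differences are inflamed minus control with limma's standard error (SE), and group means carry the standard deviation (SD), with n = 5 control and n = 3 inflamed arrays. Over all 30702 genes, 4022 changed (13.1%), 1546 of them lower (5.04%) and 2476 higher (8.06%). Of the changed genes 61.6% were higher, against 71.1% with each array centred on its median and 51.6% after quantile normalization. Inflamed replicate 2 stood apart: its Pearson correlation across genes with inflamed replicates 1 and 3 was 0.988 to 0.989, against 0.995 between those replicates and 0.995 to 0.998 among controls. Intronic control probe sets, which carry little signal from mature RNA, had array medians of 4.92 to 5.11. Members with a mean under 5.11 were Elavl3, Elavl4, Nefm, Scn3a and Th among neuronal genes and S100b and Cdh19 among glial genes, and their differences lie at background. The file gives 5 decimals, and 17 of the 33 members had exactly the same value on at least 2 arrays (51.5%, against 59.7% of all genes).

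Most neuronal genes were slightly lower in inflamed colon, while the tachykinin gene Tac1 and the receptor gene Ret were higher in all 3 inflamed mice. Of the 27 neuronal members 5 fell and 0 rose, with 14 lower and 2 higher at an unadjusted p under 0.05 in limma. The background for the 5 and 0 is 5.04% of all genes lower and 8.06% higher, at an adjusted p under 0.05. For the unadjusted counts it is 8753 of 30702 genes at an unadjusted p under 0.05 in limma, in either direction. The 5 that fell were Snap25, Gal, Stmn2, Uchl1 and Ncam1. The difference was below 0 for 24 of the 27, as it was for 55.2% of all genes, and the median difference was -0.23 against -0.01 over all genes. For 12 neuronal members all 3 inflamed values lay below all 5 controls (9.17% of all genes), and for 3, Tac1, Ret and Penk, all lay above them (12% of all genes). Of the 6 glial members only Erbb3 fell and 0 rose (0 also at an unadjusted p under 0.05 in limma), and the median difference was -0.06.

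**Figure D1:**
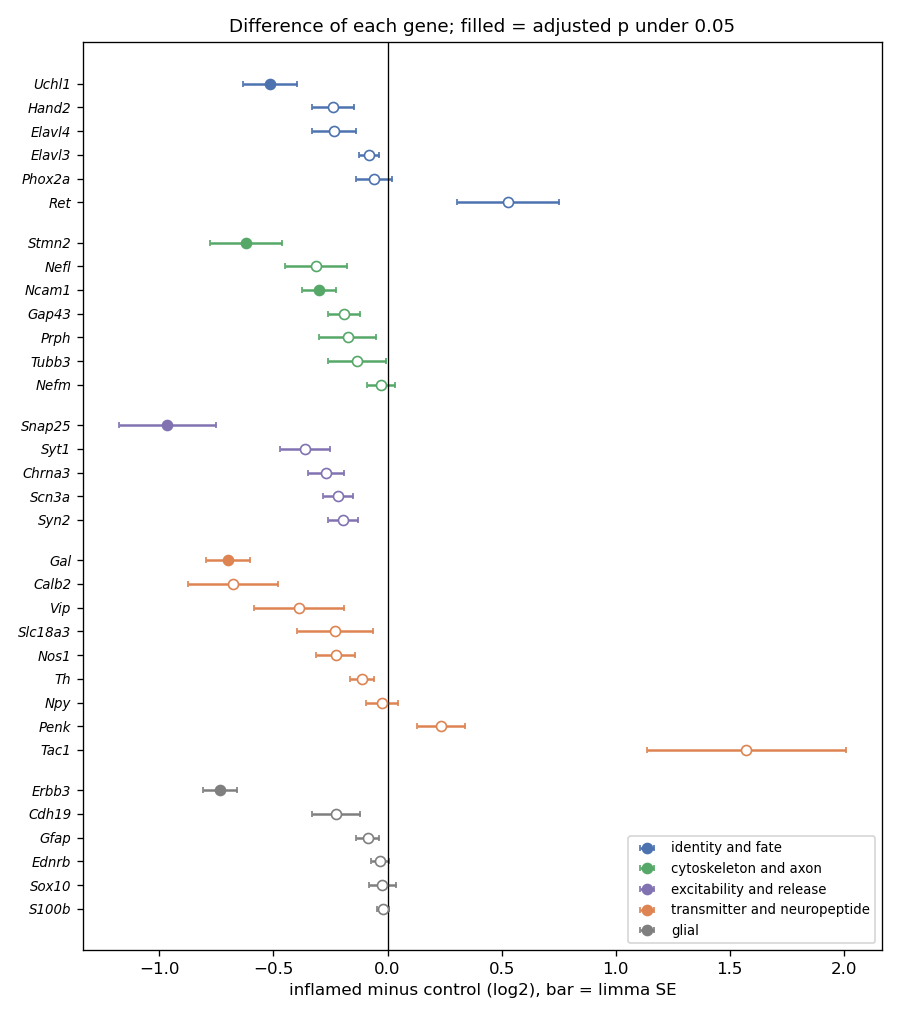
Difference of each of the 33 genes (inflamed minus control, log2; bars are limma SE), grouped by role, with filled points at an adjusted p under 0.05. The 6 filled points, 5 neuronal genes and Erbb3, all lie below 0, and Tac1 lies farthest to the right at 1.57.

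Promoter sequences from RefSeq (GRCm38.p6), from 250 bases before to 50 after a gene's start, were held for 20 of the 33 members. They are shown for Gal and Uchl1, which fell, and for Tac1 and Vip, peptide genes of the excitatory and inhibitory motor neurons. Capitals mark TGACG, or CGTCA where it reads on the other strand, the half-site of the cAMP response element, a binding sequence of the factor CREB. Each runs 5′ to 3′ on the gene's own strand.
Gal promoter, chr19:3414495-3414794, - strand: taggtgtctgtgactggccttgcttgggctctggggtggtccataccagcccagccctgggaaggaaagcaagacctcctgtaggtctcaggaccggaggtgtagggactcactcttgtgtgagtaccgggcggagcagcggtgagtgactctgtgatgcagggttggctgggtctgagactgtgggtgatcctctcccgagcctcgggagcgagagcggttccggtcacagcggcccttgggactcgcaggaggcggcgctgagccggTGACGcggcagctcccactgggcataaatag
Uchl1 promoter, chr5:66675871-66676170, + strand: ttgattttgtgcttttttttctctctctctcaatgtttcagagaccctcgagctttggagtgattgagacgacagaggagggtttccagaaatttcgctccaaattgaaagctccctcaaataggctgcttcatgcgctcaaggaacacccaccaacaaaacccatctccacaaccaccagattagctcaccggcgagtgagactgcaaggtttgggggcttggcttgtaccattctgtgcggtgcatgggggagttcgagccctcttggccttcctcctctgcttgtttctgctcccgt
Tac1 promoter, chr6:7554811-7555110, + strand: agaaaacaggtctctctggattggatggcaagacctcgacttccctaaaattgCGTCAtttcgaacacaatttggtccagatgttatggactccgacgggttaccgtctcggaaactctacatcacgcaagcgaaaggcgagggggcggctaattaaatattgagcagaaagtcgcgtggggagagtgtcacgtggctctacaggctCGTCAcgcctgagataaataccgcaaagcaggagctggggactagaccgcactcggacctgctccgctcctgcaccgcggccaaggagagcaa
Vip promoter, chr10:5638968-5639267, + strand: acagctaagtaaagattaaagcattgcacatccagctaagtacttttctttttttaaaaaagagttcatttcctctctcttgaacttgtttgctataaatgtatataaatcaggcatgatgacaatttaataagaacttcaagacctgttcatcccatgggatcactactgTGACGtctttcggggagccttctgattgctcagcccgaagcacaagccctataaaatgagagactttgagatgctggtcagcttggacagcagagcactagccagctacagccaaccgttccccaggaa

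The 3 peptide genes held this half-site and Uchl1 did not. It began at position 20 after the start in Gal and at position -79 in Vip, and it lay at -197 and -43 in Tac1. Of the 7 transmitter and peptide members with a promoter sequence, 6 held the half-site on either strand (Gal, Nos1, Slc18a3, Tac1, Th and Vip, but not Npy), and so did 9 of all 20 members. Among all 32851 promoter windows 20.8% held it, and among the 25 windows of the 20 members 11 did. Members are counted here by gene and the background by window, and the motifs were added after a first look at their matches. The full element TGACGTCA, which holds the half-site on both strands, was found in Th, beside 1.79% of all windows. Other letter strings were searched on both strands too: TATAAA was in Vip, Elavl3 and Prph (13.6% of all windows) and CAGGTG, an E-box, in Elavl3, Elavl4, Nos1, Syn2 and Th (20.2%). CAGCACC and GGACAGCG, parts of the element bound by the neuronal repressor REST, were in 2 members (Ednrb and Tubb3; 7.14%) and 0 members (1.26%). These are matches of letters, and genes with the half-site differed in direction, with Gal lower and Tac1 higher in inflamed colon.

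Among genes of neuronal identity and fate, the pan-neuronal enzyme gene Uchl1 was the only member that fell. Uchl1, also known as PGP9.5, encodes a ubiquitin hydrolase used to stain enteric neurons. It was at 6.58, 6.89, 6.56, 6.74 and 6.93 in controls 1 to 5 and at 6.28, 6.01 and 6.38 in inflamed replicates 1 to 3. All inflamed values lay below all controls, and it fell by 0.52 ± 0.12 (limma adjusted p = 0.0301), 1.43 times lower. Leaving out inflamed replicate 1 or 2, or control 2, 4 or 5, lost the call (adjusted p of 0.063 to 0.0762).

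Ret, the receptor of glial cell line-derived neurotrophic factors and also found on some lymphoid cells of the gut, was at 6.42 to 6.68 in controls. It was at 6.76, 7.74 and 6.77 in inflamed replicates 1 to 3, so that the groups did not overlap but replicate 2 lay far above the others. The difference of 0.53 ± 0.22 did not pass (limma adjusted p = 0.174), and without inflamed replicate 2 it was 0.20 (adjusted p = 0.154).

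Hand2, a transcription factor needed for enteric neurons to mature, was at 6.48 to 6.77 in controls and at 6.42, 6.21 and 6.49 in inflamed colon, where the groups overlapped. Its difference was -0.24 ± 0.09 (limma adjusted p = 0.142). Phox2a, a factor of autonomic neuron identity, was at 5.58 to 5.75 in controls and 5.41 to 5.76 in inflamed colon, with a difference of -0.06 (95% interval -0.25 to 0.12). The RNA-binding protein genes Elavl3 and Elavl4, the HuC and HuD antigens of enteric neurons, were at background, and their differences were -0.08 and -0.23. So the identity genes other than Uchl1 did not pass.

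Genes of the neuronal cytoskeleton and axon had differences below 0 in all 7 cases (55.2% of all genes), and 2 fell (5.04% of all genes lower). Stmn2, a regulator of microtubules in growing axons, was at 6.96, 7.21, 6.85, 7.08 and 7.26 in controls 1 to 5 and at 6.58, 6.07 and 6.71 in the inflamed mice. The groups did not overlap, replicate 2 was the lowest, and Stmn2 fell by 0.62 ± 0.16 (limma adjusted p = 0.0437), 1.54 times lower. It missed the threshold when any 1 control, or inflamed replicate 1 or 2, was left out (adjusted p of 0.0536 to 0.0969). Without replicate 2 the difference was -0.43.

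Ncam1, a neural cell adhesion molecule that some leukocytes also carry, was at 6.13 to 6.41 in controls and at 5.91, 6.02 and 5.87 in inflamed replicates 1 to 3. All inflamed values were lower than all controls, and it fell by 0.30 ± 0.07 (limma adjusted p = 0.0388). Leaving out inflamed replicate 1 or 3, or control 2 or 4, lost the call (adjusted p of 0.0759 to 0.121), as did both other scalings (adjusted p of 0.0557 and 0.0586).

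The other 5 members of this group did not pass. Nefl, the light neurofilament subunit, had a difference of -0.31 ± 0.14 (limma adjusted p = 0.183), and Gap43, a growth cone protein, one of -0.19 ± 0.07 (adjusted p = 0.124). The intermediate filament gene Prph and the neuronal tubulin gene Tubb3 had differences of -0.18 and -0.13. For both, inflamed replicate 2 was lowest of all 8 arrays, at 5.65 for Prph and 5.48 for Tubb3, while replicates 1 and 3 lay at 6.00 to 6.05, within or just above the control range. Without replicate 2 the difference of Tubb3 was 0.05. The middle neurofilament subunit Nefm was at background, with a difference of -0.03.

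All 5 genes of excitability and transmitter release had inflamed values below every control value (9.17% of all genes). The gap between groups was smallest for Syn2, at 0.0118, and largest for Snap25, the only member that fell (5.04% of all genes lower). Snap25, part of the SNARE complex that fuses synaptic vesicles, was at 6.93, 7.25, 6.68, 6.94 and 7.56 in controls 1 to 5 and at 5.92, 6.42 and 5.99 in inflamed replicates 1 to 3. Controls differed by 0.88 among themselves, yet the lowest control was 0.26 above the highest inflamed mouse. Snap25 fell by 0.96 ± 0.21 (95% interval -1.46 to -0.47; limma adjusted p = 0.0255), 1.95 times lower, the largest fall among the neuronal members. It did not pass when inflamed replicate 1 or 3, or control 2 or 4, was left out (adjusted p of 0.0527 to 0.0946).

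The other 4 genes of this group did not pass. Syt1, the calcium sensor of vesicle release, had a difference of -0.36 ± 0.11 (limma adjusted p = 0.0732), and Syn2, which tethers vesicles, one of -0.19 ± 0.07 (adjusted p = 0.0976). Chrna3, the subunit of the nicotinic receptor of autonomic ganglia, was at 5.20 to 5.49 in controls and 4.91 to 5.13 in inflamed colon, with a difference of -0.27 ± 0.08 (adjusted p = 0.0627). Scn3a, a voltage-gated sodium channel, was at background (difference -0.22). Leaving out dim genes from the test brought Syt1 and Chrna3 past the threshold (adjusted p = 0.0455 and 0.0423), as did quantile normalization for Chrna3 (0.0373) and array weights for Scn3a (0.0342).

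**Figure D2:**
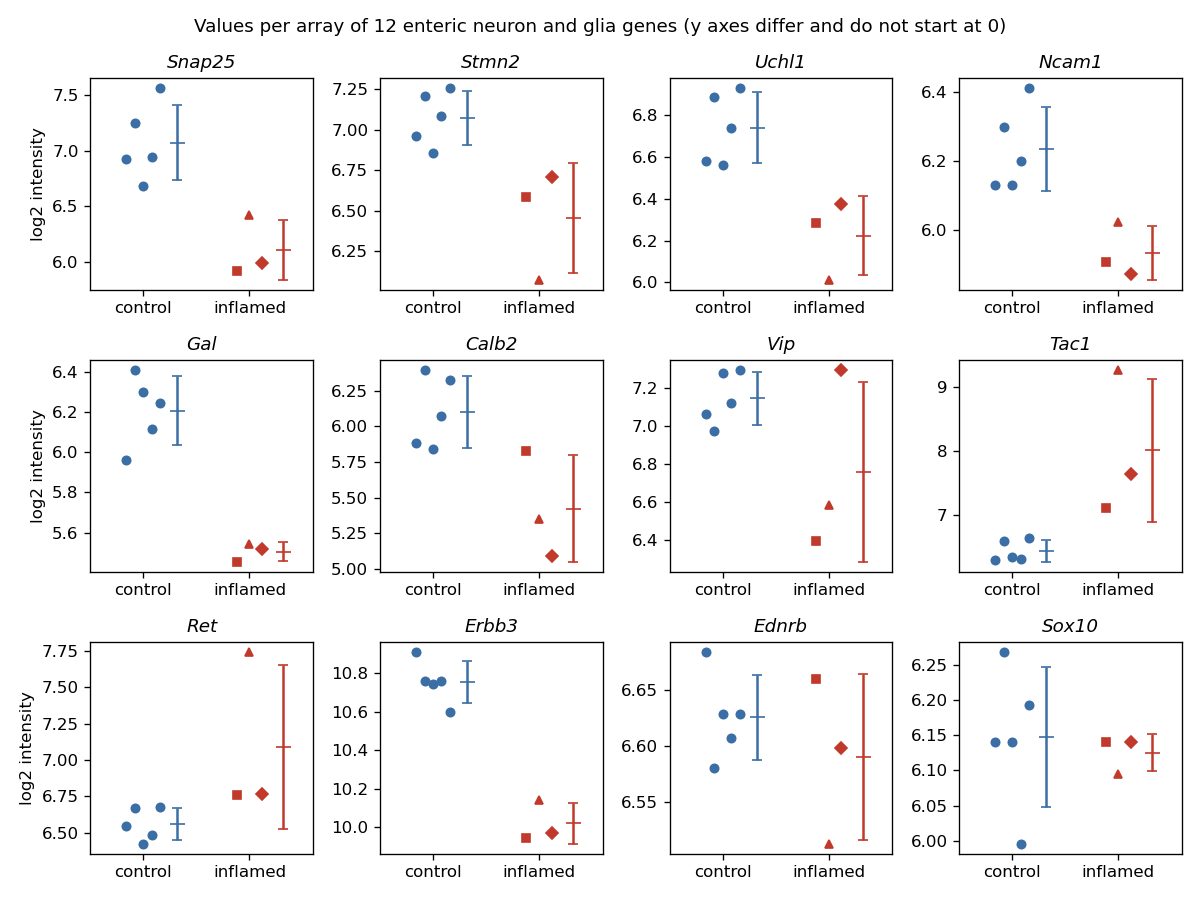
Log2 intensity per array (blue, 5 controls in order 1 to 5; red square, triangle and diamond, inflamed replicates 1, 2 and 3; bars, mean and SD) of 12 genes, on separate axes that do not start at 0. Gal, Snap25 and Erbb3 show clear gaps between the groups, Tac1 and Ret are highest on inflamed replicate 2, and Sox10 and Ednrb overlap.

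Transmitter and neuropeptide genes went in different directions. Gal, which encodes galanin, a peptide of submucosal and myenteric neurons, was at 5.96, 6.41, 6.30, 6.12 and 6.24 in controls 1 to 5 and at 5.45, 5.54 and 5.52 in the inflamed mice. The 3 inflamed values lay close together and the nearest control was 0.42 higher. Gal fell by 0.70 ± 0.10 (95% interval -0.93 to -0.47; limma adjusted p = 0.00444), 1.62 times lower, and it kept its call without any 1 of the 8 arrays (adjusted p = 0.00286 to 0.023).

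Tac1 differed the other way. It encodes the precursor of substance P and neurokinin A, which contract gut muscle and act on immune cells and sensory pathways. It was at 6.29, 6.59, 6.34, 6.31 and 6.64 in controls 1 to 5 and at 7.11, 9.26 and 7.64 in inflamed replicates 1 to 3. All 3 inflamed mice lay above all controls by at least 0.47, but they spread over more than 2 log2 units. The difference of 1.57 ± 0.44 (2.97 times higher; 95% interval 0.55 to 2.59) missed the threshold (limma adjusted p = 0.0565).

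The Tac1 result depended on inflamed replicate 2 in size and on small choices in its call. Without replicate 2 the difference was 0.94 and passed (limma adjusted p = 0.0177), and without replicate 1 it was 2.02 and passed (adjusted p = 0.0333). It also passed with arrays centred on their median (adjusted p = 0.0414), after quantile normalization (0.0423), without dim genes (0.0306) and with array weights (0.0369). The direction was the same in all 19 alternatives.

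Calb2, the calcium-binding protein calretinin, which labels many cholinergic neurons and their mucosal fibres, was at 5.88, 6.39, 5.84, 6.07 and 6.32 in controls and at 5.83, 5.35 and 5.09 in inflamed colon. The groups were parted by only 0.0099, and the difference of -0.68 ± 0.20 did not pass (limma adjusted p = 0.0654). It passed after quantile normalization (adjusted p = 0.0496), without dim genes (0.0372) and without inflamed replicate 1 (0.0368). Vip, the inhibitory and secretory transmitter gene, was at 7.07, 6.98, 7.28, 7.12 and 7.30 in controls and at 6.40, 6.59 and 7.29 in inflamed colon. Inflamed replicates 1 and 2 were below all controls while replicate 3 was level with the highest of them. The difference was -0.39 ± 0.20 (adjusted p = 0.242), and without replicate 3 it was -0.66 and passed (adjusted p = 0.0146).

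Nos1, the neuronal nitric oxide synthase of inhibitory neurons, was at 6.07 to 6.32 in controls and at 6.02, 5.75 and 6.05 in inflamed colon, a difference of -0.23 ± 0.09 (limma adjusted p = 0.136). Slc18a3, the vesicular acetylcholine transporter, was at 5.31 to 5.71 in controls and at 5.55, 4.89 and 5.53 in inflamed colon, so that only inflamed replicate 2 was low. Its difference was -0.23 ± 0.17 (adjusted p = 0.40). Neither marker of the main motor neuron classes passed.

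Penk, the enkephalin precursor, was at 5.64 to 6.09 in controls and at 6.14, 6.14 and 6.25 in inflamed colon, above all controls by at least 0.05, with a difference of 0.23 ± 0.11 (limma adjusted p = 0.198). Npy, neuropeptide Y of sympathetic fibres and some enteric neurons, was at 5.08 to 5.42 in controls and 5.24 on each inflamed array (difference -0.03, 95% interval -0.19 to 0.14). Th, the enzyme of catecholamine synthesis, was at background, with a difference of -0.11. Dbh, the enzyme that makes noradrenaline in sympathetic fibres and no member, was at 5.16 in controls 1 to 4, at 5.25 in control 5 and at 5.03 to 5.06 in inflamed colon, within the range of the intronic medians. It fell by 0.12 ± 0.03 (limma adjusted p = 0.0417), a call that was lost in 7 of the 8 fits without 1 array (adjusted p of 0.0603 to 0.127).

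**Figure D3:**
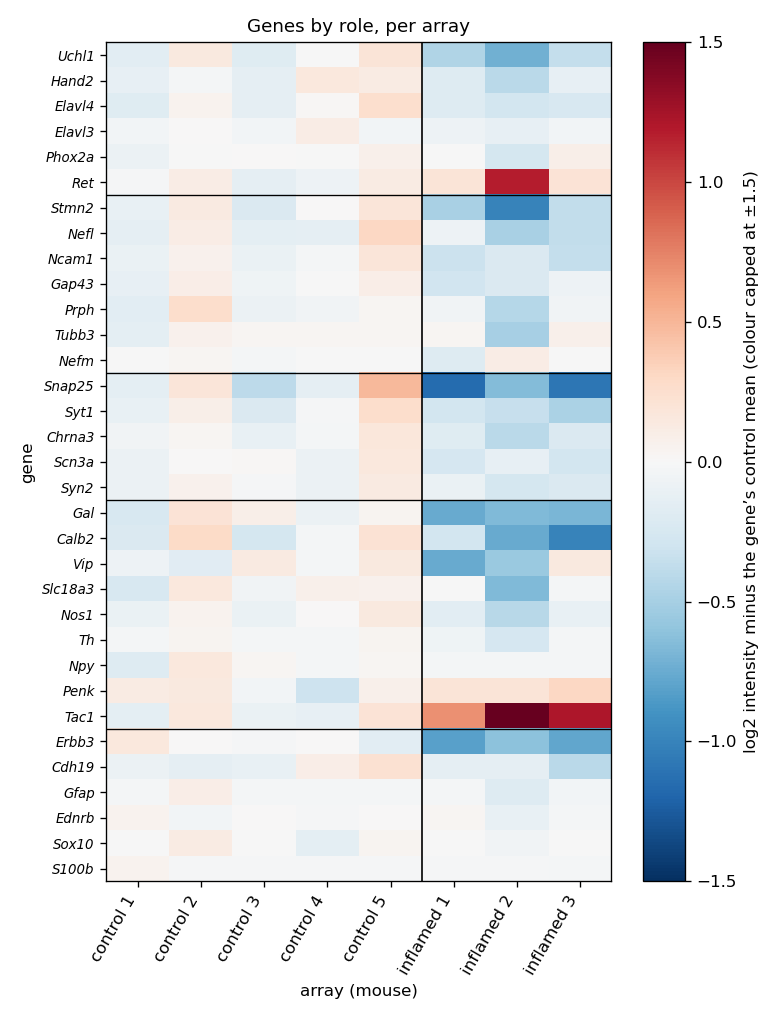
Log2 intensity of each of the 33 genes on each array minus the gene's control mean, with genes grouped by role (Tac1 on inflamed replicate 2 lies beyond the colour limit of 1.5). Most neuronal rows lean to blue on the 3 inflamed arrays, many only faintly (median difference -0.23), while Tac1 and Ret are red. Glial genes other than Erbb3 are pale, and Cdh19 among them also has a difference of -0.23.

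Glial genes other than Erbb3 showed no difference that passed. Sox10, the transcription factor that marks enteric glia and their progenitors, was at 6.14, 6.27, 6.14, 6.00 and 6.19 in controls and at 6.14, 6.09 and 6.14 in inflamed colon. The inflamed values lay inside the control range, with a difference of -0.02 ± 0.06 (95% interval -0.16 to 0.11; limma adjusted p = 0.831). Gfap, the intermediate filament protein of glia, was at 5.39 on 5 of the 8 arrays, at 5.51 in control 2 and at 5.22 and 5.37 in inflamed replicates 2 and 3. Its difference was -0.09 ± 0.05 (adjusted p = 0.306).

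Ednrb, the endothelin B receptor of neural crest cells, was at 6.58 to 6.68 in controls and at 6.66, 6.51 and 6.60 in inflamed colon. Its difference was -0.04 ± 0.04 (limma adjusted p = 0.588). S100b, a calcium-binding protein of glia, and the cadherin gene Cdh19 were at background, with differences of -0.02 and -0.23. S100b had the same value on 5 arrays, so its probe set gave almost no information on these mice. Gfap also had 1 value on 5 arrays and Sox10 on 4, so their intervals say little about how far these genes could have fallen.

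Erbb3, the neuregulin receptor that Schwann cell and glial precursors need and that gut epithelium also expresses, was at 10.91, 10.76, 10.74, 10.76 and 10.60 in controls 1 to 5. It was at 9.94, 10.14 and 9.97 in inflamed colon. The highest inflamed value was 0.46 below the lowest control, and Erbb3 fell by 0.74 ± 0.07 (limma adjusted p = 0.00143), 1.67 times lower. The call held without any 1 of the 8 arrays (adjusted p = 0.00268 to 0.00865). Its partner receptor gene Erbb2 fell too, by 0.74 ± 0.09 (adjusted p = 0.00267), while the ligand gene Nrg1 rose by 1.47 ± 0.12 (adjusted p = 0.000636), from 5.72 to 6.14 in controls to 7.17 to 7.57 in inflamed colon. Nrg1 has 2 probe sets, and the dimmer one, at 3.18 to 3.67 and so under the intronic medians, had a difference of 0.11 ± 0.10 (adjusted p = 0.477 with every probe set tested), so the call rests on the brighter one. The epithelial list, given beside this, did not fall: limma called 0 of its 10 genes lower (1 at an unadjusted p under 0.05) and 1 higher. Its mean level was 11.31 to 11.50 in controls and 11.50 to 11.58 in inflamed colon. The part of epithelial cells in the Erbb3 result was not tested.

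**Figure D4:**
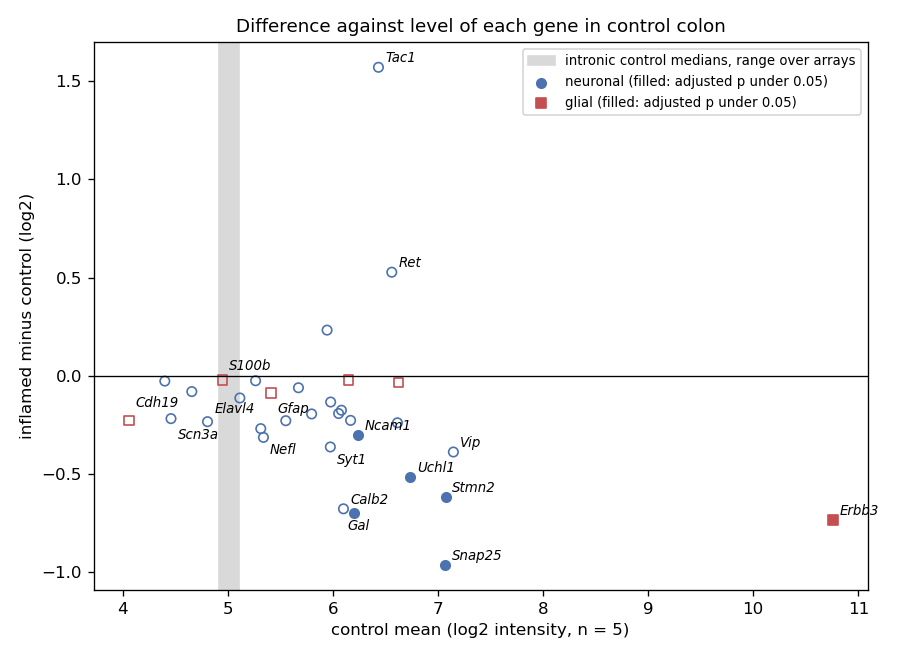
Difference (inflamed minus control, log2) of each gene against its control mean (log2 intensity, n = 5); blue circles are neuronal and red squares glial genes, filled at an adjusted p under 0.05, and grey marks the range of intronic control medians (4.92 to 5.11). The genes that fell have control means of 6.21 to 10.76, and no gene in or left of the grey band passed.

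Many neuronal genes ranked the control mice alike. Control 5 held the highest control value for 16 of the 27 neuronal members and control 2 for 9, while control 1 held the lowest for 15 and control 3 for 10. Ties were counted for the lowest-numbered array, and control 1 only shared the lowest value for Elavl3, Th, Ncam1, Scn3a and Syn2. The mean level over the 27 was 5.77, 5.97, 5.80, 5.85 and 6.02 in controls 1 to 5 and 5.69, 5.68 and 5.73 in inflamed replicates 1 to 3. The smooth muscle list had the same low controls, with control 1 lowest for 10 of its 15 genes (tied for Myocd and Pgm5) and control 3 for 4. The means of both lists put control 1 lowest and control 3 next. At the upper end control 4 was highest for 11 of the 15 muscle genes. Among inflamed mice, replicate 2 was the lowest for 15 neuronal members, yet for Tac1, Ret and Snap25 it was the highest. It was the highest for 8 of the 27 in all, with a tie for Npy.

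Other neuronal genes, taken from a wider list of structure and release, were mostly a little lower too. Of 39 measured genes (46 listed) 6 fell and 1 rose (5.04% of all genes lower, 8.06% higher), 36 differences were below 0 (55.2% of all genes), and the median was -0.14. Without inflamed replicate 1 only 1 of the 6 kept a call, Dpp10. Dpp10, a subunit of neuronal potassium channels, fell by 0.80 ± 0.15 (limma adjusted p = 0.0143), from 5.14 to 5.56 in controls to 4.24 to 4.75 in inflamed colon, where it lay under the intronic medians and so at background. The secretogranin gene Scg3 fell by 0.55 ± 0.12 (adjusted p = 0.0221), a call that held in 4 of the 8 fits without 1 array (up to 0.0757). Thy1, found on neurons and on T cells and fibroblasts, rose by 0.58 ± 0.08 (adjusted p = 0.00471).

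Of 22 other genes of transmitter synthesis, transport and peptides (24 listed) 4 fell, Dbh among them, and 1 rose (5.04% of all genes lower, 8.06% higher). Without control 2, or inflamed replicate 1 or 3, 2 were lower. The gene that rose was Gad2, an enzyme of GABA synthesis, by 0.26 ± 0.06 (limma adjusted p = 0.0281), and that call was lost without any 1 of controls 1 to 4 or inflamed replicate 3 (adjusted p of 0.0559 to 0.0673). The leading falls were in genes that cells other than neurons also express. Somatostatin (Sst) fell by 1.23 ± 0.11 (limma adjusted p = 0.000892), the amine-forming enzyme gene Ddc fell by 1.22 ± 0.19 (adjusted p = 0.00719) and the serotonin transporter gene Slc6a4 fell by 0.75 ± 0.15 (adjusted p = 0.0211). Sst and Ddc kept their calls without any 1 array, and Slc6a4 lost its call without control 2 or inflamed replicate 1 or 3 (adjusted p of 0.0521 to 0.0792). The list's median difference was only -0.06. Of 22 neurotrophic and neural crest signals (27 listed) Nrg1 and Erbb2 were the only calls, 1 higher and 1 lower (background 8.06% and 5.04%), and both held without any 1 array. Gdnf, the ligand of the Ret complex, had a difference of -0.11 ± 0.06 (adjusted p = 0.247). Edn3, the ligand of Ednrb, was at 6.12 to 6.36 in controls and 6.35 to 7.11 in inflamed colon (difference 0.53 ± 0.16, adjusted p = 0.0752).

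Of 23 further glial and Schwann cell genes (27 listed; Gap43, a neuronal member, is among the 23) 2 rose and 1 fell, with a median difference of -0.05. These shares are close to those over all genes, 8.06% higher and 5.04% lower. The genes called are also expressed outside glia: the lipid carrier gene Apoe, also made by macrophages, rose by 0.65 ± 0.09 (limma adjusted p = 0.00367), the folate enzyme gene Aldh1l1 rose by 0.38 ± 0.09 (adjusted p = 0.0296) but lost its call in 6 of the 8 fits without 1 array (adjusted p of 0.055 to 0.0856), and the small heat shock protein gene Cryab, also of muscle, fell by 0.71 ± 0.09 (adjusted p = 0.00289).

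Receptors through which enteric transmitters act were lower in many cases. Of 29 measured receptors and effectors (30 listed) 14 fell and 0 rose (5.04% of all genes lower; 1 was higher at an unadjusted p under 0.05 in limma), and the median difference was -0.30. Without inflamed replicate 1 there were 7 lower, and without inflamed replicate 3 or control 2 or 4 there were 8. The somatostatin receptor gene Sstr1 fell by 2.12 ± 0.21 (limma adjusted p = 0.00138). It was at 6.94 to 7.64 in controls and at 4.90, 5.68 and 4.96 in inflamed replicates 1 to 3. Replicates 1 and 3 thus lay at the level of the intronic medians. The purinergic receptor gene P2ry1, which carries inhibitory signals to muscle, fell by 0.78 ± 0.10 (adjusted p = 0.00318). The neurokinin receptor gene Tacr2 of gut muscle fell by 0.72 ± 0.16 (adjusted p = 0.0252). Sstr1 and P2ry1 held without any 1 array, while Tacr2 held in 2 of those 8 fits (up to an adjusted p of 0.089). For the peptides with members above, the receptors of vasoactive intestinal peptide Vipr1 and Vipr2 fell by 0.37 ± 0.05 (adjusted p = 0.00458) and 0.47 ± 0.12 (adjusted p = 0.0446). Vipr1 held without any 1 array and Vipr2 in 1 of the 8 fits (up to 0.149). Galr1 fell by 0.23 ± 0.06 (adjusted p = 0.0386) at a background level, a call held in 2 of those fits (up to 0.111), and Tacr1, the substance P receptor, had a difference of 0.31 ± 0.11 (adjusted p = 0.124).

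Markers of muscle, endocrine and immune cells differed between the same groups of mice. All 15 smooth muscle genes had differences below 0 (55.2% of all genes) and 7 fell (5.04% of all genes). Among them Cnn1, Des and Acta2 fell by 0.77, 0.73 and 0.73 (limma adjusted p = 0.0112, 0.0298 and 0.00801). Cnn1 and Acta2 held without any 1 array, and Des in 3 of the 8 fits (up to an adjusted p of 0.082). The mean level of the list was 8.93 to 9.37 in controls and 8.49 to 8.61 in inflamed colon, and its median difference was -0.65.

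The 7 genes of the interstitial cells of Cajal, pacemakers of the gut, went in both directions, with 3 differences below 0, 4 above and a median of 0.08. Kit, their defining receptor, also found on mast cells, fell by 1.39 (limma adjusted p = 0.00272) and held without any 1 array. Thbs4 fell by 1.48 (adjusted p = 0.0469), but its groups overlapped, with 8.55 in inflamed replicate 2 and 8.37 in control 1, and it held in 2 of the 8 fits without 1 array (up to 0.149). Ano1, the other gene below 0, had a difference of -0.57 ± 0.25 and did not pass (limma adjusted p = 0.19). Edn3 and Prkcq were higher at an unadjusted p under 0.05, with differences of 0.53 and 0.36 (adjusted p = 0.0752 and 0.0962). The part of immune or other cells in these differences was not tested. In the alternatives, 1 gene of the list was called higher with centred arrays, after quantile normalization and without dim genes (2 with array weights).

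Of 12 enteroendocrine genes 6 fell and 0 rose (5.04% of all genes lower; also 0 higher at an unadjusted p under 0.05 in limma). The granin gene Chga fell by 2.03 (limma adjusted p = 0.0018) and held without any 1 array, and without inflamed replicate 1 it was the only 1 of the 6 to keep its call. Without control 5, or with a floor at the median of all clusters, 3 were lower. Chgb fell by 1.71 and the glucagon gene Gcg fell by 1.33 (adjusted p = 0.0179 and 0.0444), and Gcg held in 1 of the 8 fits without 1 array (up to 0.15). The list's mean level was 7.25 to 7.79 in controls and 6.34, 6.93 and 6.00 in inflamed replicates 1 to 3, and replicate 2 was highest there as it was for Snap25. All 10 leukocyte genes rose (8.06% of all genes), by 0.70 to 2.74, with mean levels of 5.93 to 6.08 in controls and 7.67 to 7.74 in inflamed colon. No list mean overlapped between groups for muscle, enteroendocrine or leukocyte genes, which does not set these lists apart. The means also did not overlap for the neuronal and glial members, the wider neuronal and transmitter lists, and the receptor, Cajal cell and epithelial lists. They overlapped for the neurotrophic, further glial, fibroblast, endothelial, fat and skeletal muscle lists. Among the glial members only Erbb3, by far the brightest of them, had groups that did not overlap. Snap25, Uchl1, Calb2, Gal and Tac1 can also be expressed outside neurons, and the part of muscle, endocrine or immune cells in the neuronal differences was not tested.

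**Figure D5:**
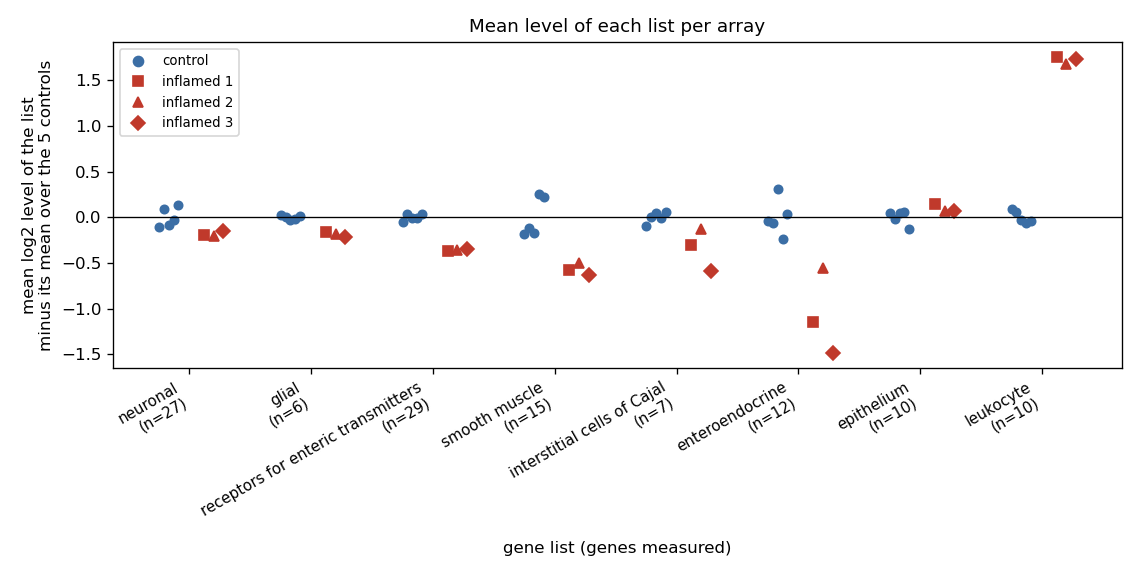
Mean log2 level of 8 gene lists on each array, minus the list's mean over the 5 controls (blue circles, controls; red square, triangle and diamond, inflamed replicates 1, 2 and 3). The neuronal list lies slightly below the controls, the muscle and enteroendocrine lists lie farther below, and the leukocyte list lies above.

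The sexes of the mice were mixed within both groups. Xist, expressed in females, lay at 4.11 to 4.53 on 4 arrays (controls 1 and 2, inflamed replicates 1 and 2) and at 10.65 to 11.28 on the rest. With this pattern as a block, Snap25, Gal and Erbb3 kept their calls (limma adjusted p = 0.0464, 0.0121 and 0.00253), while Uchl1, Stmn2 and Ncam1 did not (adjusted p = 0.0599, 0.0826 and 0.0699). Within the 4 low-Xist arrays, 2 against 2, the differences of these 6 genes had the same sign, at -0.92, -0.69, -0.79, -0.59, -0.76 and -0.25 in the same order. No gene passed limma there, with 4597 of all genes at an unadjusted p under 0.05. The other arrays hold only 1 inflamed mouse.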

How the data were processed

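The authors deposited log2 intensities, 1 value per probe set and array. Per the submitters' processing notes they used RMA in Affymetrix Expression Console, a method that corrects background, scales arrays to each other and summarises probes. Its version, settings and any genome build: not given in the sources used here. A log2 scale was read from the range of values, and array medians over 65956 transcript clusters were 4.81 to 4.91. RMA compresses low signals, so differences of dim genes are understated, and the number of arrays limits the precision. Probe sets took their symbols from the array annotation, updated through RefSeq's GRCm38.p6 gene table: 31258 named probe sets gave 30702 genes, and the brightest by mean was used for the 441 genes with several.

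Groups were compared with limma 3.58.1 in R 4.3.3 (lmFit, eBayes, no covariate) over all genes, with Benjamini-Hochberg adjustment and a threshold of 0.05. The script was tested on simulated data. Replicates are biological per the labels, so arrays were treated as different mice. The members and lists were chosen with earlier results of these data known, so lists are described by counts and medians without a test. All 33 members were named; in other lists the 3 called genes with the largest changes, or the 2 largest if under 2 were called. Genes named as ligands or receptors of members (Gdnf, Edn3, Vipr1, Vipr2, Galr1, Tacr1), and Dbh, Gad2, Prkcq and Ano1, were added after their values were seen. The promoter motifs were added after a first look at their matches. Alternatives covered scaling, a floor, dim genes, probe sets, the variance model, array weights, replicate number or Xist as a block and each array left out; low-Xist arrays alone were added after the data were seen. The labels state no pairing of mice by replicate number.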

Additional observations from a re-analysis of the deposited data

Results flagged for a closer look

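Among the 33 members, 3 had a control mouse far from the other 4 by Dixon's criterion, where chance gives about 1 in 20 for values without ties. Tubb3 was at 5.84 in control 1 against 6.00 to 6.04 in the other controls. Gfap was at 5.51 in control 2 against 5.39 in each of the others, and S100b was at 5.00 in control 1 against 4.93, over ranges of only 0.12 and 0.07 on the log2 scale. For both, the other 4 controls shared 1 value, so any deviation would be flagged and the chance rate does not apply.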

How the results depend on the processing

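Gal and Erbb3 kept direction and call in 17 of 19 alternatives, all but the replicate block and the low-Xist arrays. Uchl1, Stmn2, Ncam1 and Snap25 kept direction in all 19 and their call in 10, 8, 9 and 12. The cause of these changes was not tested. Against 5 neuronal genes lower and 0 higher, a floor at the median of all clusters gave 1 lower, leaving out dim genes 8 lower and 1 higher, and the Xist block 2 lower. Centred arrays, quantile normalization and array weights each gave 1 neuronal gene higher, Tac1. With each array left out in turn, 1 to 4 neuronal genes were lower, 0 to 1 higher (without inflamed replicate 1 or 2), and 2510 to 4573 of all genes called. Leaving out control 2 or 4 left 1 neuronal gene lower, Gal. With the replicate block, limma called 0 genes, 0 neuronal and 0 glial, with 4918 of all genes, 5 neuronal genes lower and 1 higher and 1 glial gene lower at an unadjusted p under 0.05. Same-numbered mice deviated with correlations of -0.29, -0.05 and 0.07. No differently numbered mice were set beside them, so these values do not settle whether the numbers pair mice. Low-Xist arrays alone, added after the data were seen, gave 0 calls over all genes, 0 neuronal and 0 glial (unadjusted 4597, 5 and 1). No scaling moved the median of all genes by over 0.1. The medians of neuronal and glial members ranged from -0.25 to -0.16 and from -0.09 to -0.02. Signal near background limits the 7 dimmest members.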

Other observations

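Markers of the remaining tissue of the gut wall gave no call in the main limma fit. Of 5 fibroblast genes 0 passed (2 higher at an unadjusted p under 0.05), and the largest differences were 0.49 ± 0.16 for Col3a1 and -0.43 ± 0.27 for Lum (limma adjusted p = 0.085 and 0.34). Of 5 endothelial genes 0 passed (0 unadjusted), with Cdh5 at 0.20 and Emcn at -0.11, and of 4 fat genes 0 (0 unadjusted), with Plin1 at -0.14 and Fabp4 at 0.12. Of 5 skeletal muscle genes 0 passed (1 lower unadjusted), with Ckm at -0.31 and Acta1 at -0.15. Alternatives did give calls: 2 fibroblast genes were higher with centred arrays, array weights or the Xist block, and 1 without dim genes or without inflamed replicate 2. For endothelium 1 gene was higher without inflamed replicate 1, and 1 was lower without inflamed replicate 2. In the epithelial list Krt20, a keratin of mature surface cells, rose by 0.58 ± 0.12 (adjusted p = 0.0199; up to 0.0538 in the 8 fits without 1 array, of which 4 kept the call), and Cldn3 had a difference of -0.30 (adjusted p = 0.121). Among leukocyte genes Cd53, Ptprc and Itgb2 rose most, by 2.74, 2.62 and 2.17.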
